A study of Mus musculus with 12 samples.

Results

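The enzymes of cholesterol and fatty acid synthesis, with 4 genes that control or carry their products, were examined as a group of 28 listed genes in the mouse lung tumour line A2C12. They were found by gene symbol in the platform annotation, among probe sets with 1 symbol, and each gene was read from its brightest probe set (by 12-array mean). This gave 27 measured members of 18194 genes in all, namely 15 of the sterol branch, 8 of the fatty acid branch and 4 regulators or carriers. Acat2 was not analysed here. The list was not chosen from measured values, although it was proposed with earlier results of these data known.

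A2C12 was derived from a lung tumour of a C57BL/6 mouse with 2 transgenes, c-myc and c-raf, so all groups share both oncogenes and 1 line. The 4 groups were SP cells treated with anti-EpCAM, non-SP cells treated with anti-EpCAM, untreated SP cells and untreated non-SP cells, with 3 arrays each, which the labels call biological replicates. Treatment was a monoclonal antibody to mouse EpCAM, an adhesion protein of epithelial cells, at 100 µg/ml for 48 h. SP, the side population, is the fraction that pumps out Hoechst dye, which was given at 5 µg/ml for 90 min, and non-SP is the fraction that keeps the dye. Reserpine (50 µmol/l), a blocker of dye export, was used beside it. The design asks whether SP differs from non-SP with and without the antibody, and whether the antibody changes each fraction.

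Cholesterol is built from acetyl-CoA through mevalonate and farnesyl diphosphate to squalene, which is closed into lanosterol and then trimmed and reduced. The sterol regulatory element binding proteins SREBP-1 and SREBP-2 switch on most genes of this route and of fatty acid synthesis when the endoplasmic reticulum is short of sterol, while INSIG proteins hold them there when sterol is plentiful. In the lung, alveolar type II cells use both routes to make surfactant lipids.

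Because SREBP proteins act through promoter elements, the 300 bases around the start of each gene (250 before, 50 after) were searched in RefSeq sequence of build GRCm38.p6 for 20 of the 27 members that matched. The sterol regulatory element core TCACNCCAC, on either strand, occurred in 1 of the 20 members (5%), Hmgcs1, against 1.44% of 27025 genes. CCAAT, the box bound by NF-Y, occurred in 17 of 20 members (85%), against 41.1% of all genes, and the E-box CACGTG in 4 of 20 (20%), against 8.09%. The marked motifs share no bases. Hmgcs1, which makes the precursor of mevalonate, is shown because it alone held the core in this window. The stretch lies at chr13:119690101-119690350 on the plus strand and ends just before the gene's start, with the core (first base 137 before the start) and the reverse CCAAT boxes (237, 176 and 45 before) in capitals.
Hmgcs1 promoter: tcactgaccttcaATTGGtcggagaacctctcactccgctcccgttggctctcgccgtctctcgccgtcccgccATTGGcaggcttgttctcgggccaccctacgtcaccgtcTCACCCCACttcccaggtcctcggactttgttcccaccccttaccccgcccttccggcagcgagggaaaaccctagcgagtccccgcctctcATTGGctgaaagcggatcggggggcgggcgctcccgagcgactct
A match is a run of letters and not a measured binding site.

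All 27 members gave clear signal. Their means over the 12 arrays lay between 7.85 (Mvd) and 13.5 (Scd2) on the log2 scale, while 76.5% of all genes had a mean of at least 5. The members' median standard deviation over 12 arrays was 0.204 log2 units, against 0.252 for all genes with a mean of at least 5. The 2 sets were not matched for signal, since their median means were 10.2 and 8.13. Of the cell type markers, 3 of 8 epithelial ones had a mean of at least 7 (Epcam 8.11, Krt8 8.77, Krt19 11.7), as had 6 of 7 fibroblast ones (Col1a2 12.6, Pdgfrb 10.5, but Lum 4.15). Of 8 alveolar type II markers 2 did (Sftpb 7.44, Abca3 9.01), while Sftpc, Sftpa1 and Sftpd read 5.64, 5.04 and 5.15. Of 10 leukocyte and macrophage markers 3 did (Cd68 7.33, Cd14 8.94, Csf1r 9.98), with Ptprc at 3.42, and of 5 endothelial markers 0 did. Of 4 adipocyte markers 1 did (Lpl 9.58), with Fabp4 at 5.66 and Adipoq at 3.95. In sorted bulk RNA, fewer cells of a type and less RNA per cell cannot be told apart.

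For these genes 2 SP arrays stood apart, the second from treated cells and the first from untreated cells. In the second SP array from anti-EpCAM treated cells, 27 of 27 members lay below their own mean over 12 arrays, against 63.5% of all genes, and 21 were at their lowest of the 12, against 20.2% of all genes. The members' median there was 0.32 log2 units below their means (-0.32), against -0.10 for all genes. The drop was deepest for Fdps (-1.14), Nsdhl (-0.81), Fasn (-0.80), Fads2 (-0.75) and Srebf2 (-0.60), and shallowest for Insig1 (-0.08). In the first SP array from untreated cells, 21 of 27 members lay below their own mean, against 27.6% of all genes. Relative to the median of all genes on the same array, the members' median was -0.22 in the treated array and -0.21 in the untreated one. After each array was centred on its median, 26 of 27 members were below their mean in the treated array, against 47.3% of all genes, and 27 of 27 in the untreated one, against 52.0%. The members' median in each comparison is also given without the array that moved it most where the sign turned.

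**Figure D1:**
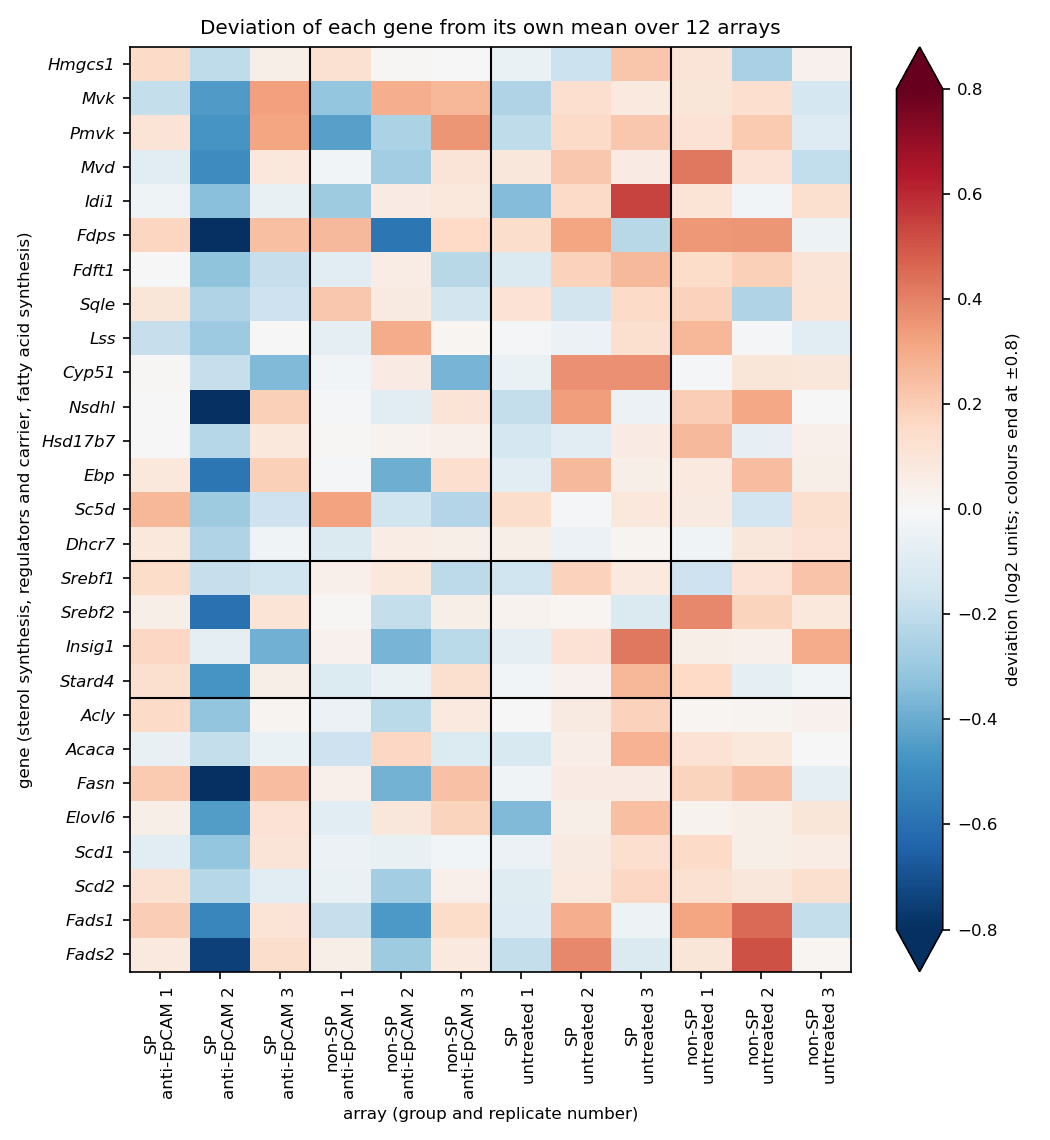
Deviation of each of the 27 genes (one per line, ordered as sterol synthesis, regulators and carrier, fatty acid synthesis) from its own mean over 12 arrays, in log2 units, with arrays in columns by group. The column of the second treated SP array is blue throughout, with Fdps (-1.14), Nsdhl (-0.81) and Fasn (-0.80) at or beyond the end of the colour scale.

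Between SP and non-SP from treated cells, sterol and fatty acid genes were mostly on the lower side in SP, but no member passed the test. By limma with Benjamini-Hochberg adjustment 0 of 27 members and 0 of 18194 genes (0%) passed an adjusted p of 0.05 in either direction, and at an unadjusted p under 0.05 there were 0 members against 54 genes higher (0.297%) and 73 lower (0.401%). The difference was below 0 for 22 of 27 members, against 57.7% of all genes, with a members' median of -0.07 and an all-gene median of -0.03. On their brightest probe sets, squalene and late sterol enzymes lay below 0 in 9 of 9 cases, or 4 of 9 without the second treated SP array. Where such a gene had more, its next-brightest probe set gave 0.19 for Lss and 0.27 for Cyp51. It gave -0.15 for Fdft1, -0.12 for Hsd17b7 and -0.05 for Sc5d. Of the members, Pmvk (0.10), Fads1 (0.09), Insig1 (0.08), Scd2 (0.03) and Acly (0.01) were above 0. No member had groups that did not overlap, against 0.572% of genes with SP wholly higher and 1.78% with SP wholly lower. Without the second treated SP array 7 of 27 members lay below 0, against 50.1% of all genes, and the members' median was 0.065, so the sign rested on that array.

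Between SP and non-SP from untreated cells the members were nearly level. Again 0 of 27 members and 0 of 18194 genes (0%) passed by limma in either direction, with 0 members at an unadjusted p under 0.05 against 3 genes higher (0.0165%) and 1 lower (0.0055%). The members' median was -0.03, against 0.01 for all genes, and 17 of 27 lay below 0, against 46.3% of all genes. Without the first untreated SP array 10 of 27 lay below 0, against 59.0% of all genes, and the median was 0.027. Leaving out 1 array at a time moved it between -0.081 and 0.027. Srebf2 was the 1 member whose groups did not overlap, with SP lower, a state that 1.13% of all genes shared, and no member had SP wholly higher, against 1.24%. The 4 fatty acid desaturases lay below 0 (-0.03 to -0.18) without passing the test, and without the first untreated SP array 2 of 4 lay below 0.

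Most genes on the arrays, the members among them, read lower in treated than in untreated SP as deposited, a shift that array centring removed. By limma 0 of 27 members and 0 of 18194 genes (0%) passed in either direction. At an unadjusted p under 0.05, 1 member (Cyp51) and 815 genes (4.48%) were lower, and 0 members and 20 genes (0.11%) were higher. Of the members 25 of 27 lay below 0, against 78.4% of all genes, with a median of -0.15 against -0.12, and 19 of 27 lay below the all-gene median. No member had groups that did not overlap, against 8.04% of genes with treated wholly lower and 0.434% wholly higher. With arrays centred on their medians 18 of 27 members lay below 0, against 49.3% of all genes, the members' median was -0.026 against 0.0026 for all genes, and 0 members had an unadjusted p under 0.05. Without the second treated SP array 13 of 27 lay below 0, against 68.0%, and the members' median was 0.0024.

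In non-SP the picture after antibody was similar in size. By limma 0 of 27 members and 0 of 18194 genes (0%) passed in either direction, with 0 members at an unadjusted p under 0.05 against 94 genes higher (0.517%) and 491 lower (2.7%). The difference was below 0 for 22 of 27 members, against 70.9% of all genes, with a median of -0.13 against -0.10, and 16 of 27 lay below the all-gene median. For 5 members the treated arrays lay wholly below the untreated ones (Insig1, Srebf2, Fdft1, Scd1 and Scd2), a state of 6.62% of all genes, and none lay wholly above, against 1.19%. With arrays centred 12 of 27 lay below 0, against 38.1% of all genes, and the members' median became 0.024 against 0.054.

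The interaction asks whether the SP against non-SP difference itself changed with the antibody. By limma 0 of 27 members and 0 of 18194 genes (0%) passed in either direction, and at an unadjusted p under 0.05 there were 0 members against 7 genes higher (0.0385%) and 36 lower (0.198%). The members' median was -0.05 against -0.03 for all genes, and 19 of 27 lay below 0, against 56.4%. Without the second treated SP array the members' median was 0.081.

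In both fraction comparisons the 95% interval of each of the 27 members lay within a 2-fold change, the farthest bound being that of Fdps in treated cells at -0.92 log2 units (1.89-fold). In each antibody comparison and in the interaction 26 of 27 did, and Fdps reached -1.05 in SP, -1.002 in non-SP and -1.08 in the interaction. The median reach of the interval to either side was 0.41 log2 units (1.33-fold) for single comparisons and 0.59 for the interaction. These are intervals for single genes without adjustment, and not limits of detection after adjustment over all genes.

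**Figure D2:**
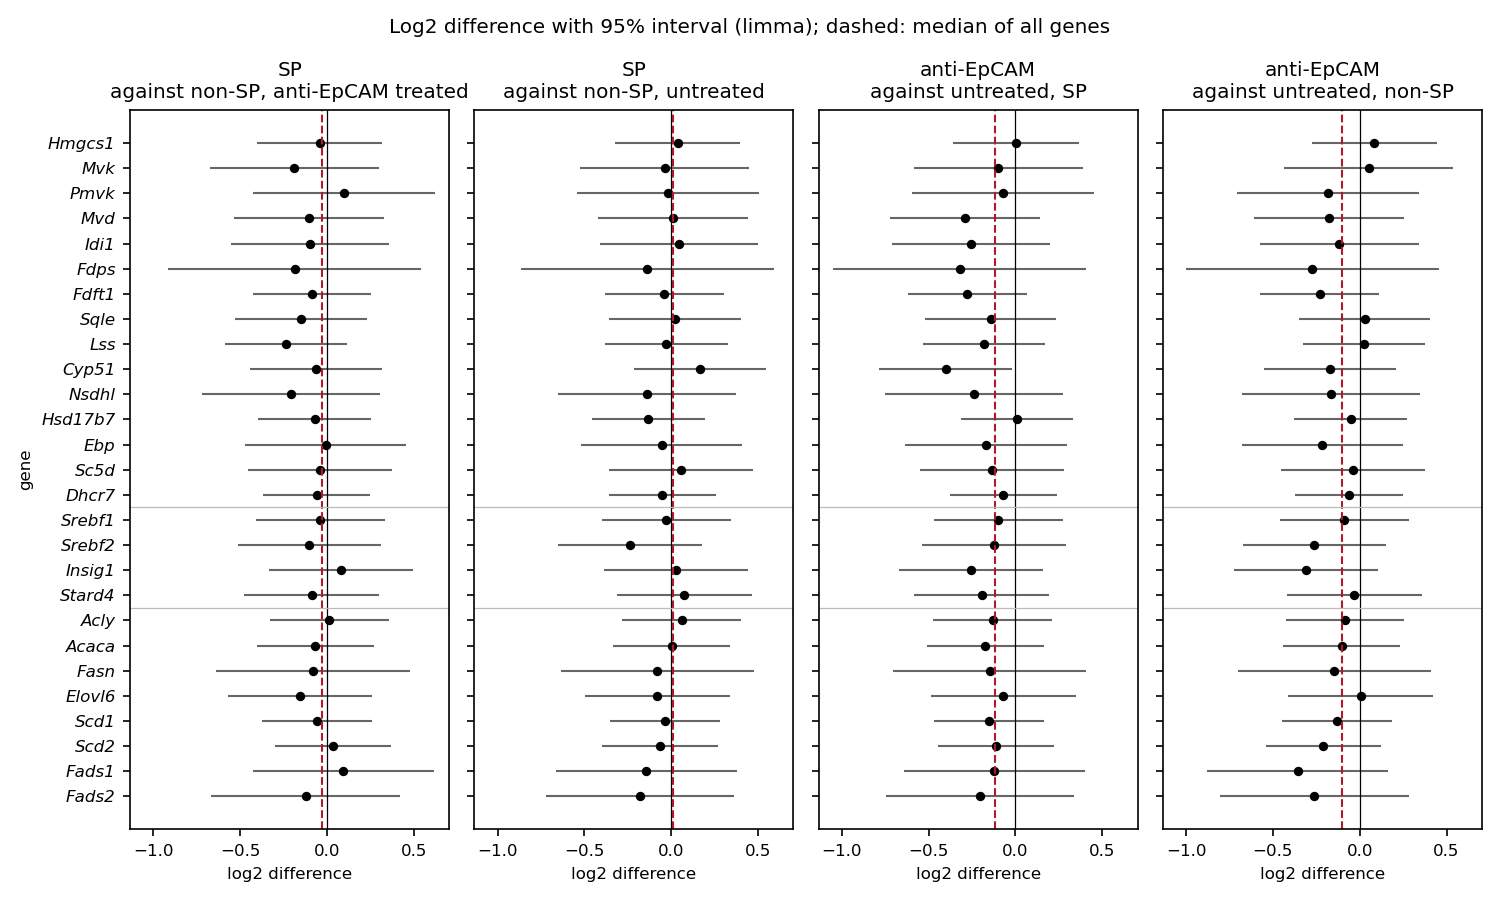
Log2 difference of each of the 27 genes with its 95% interval from limma, for SP against non-SP in treated and untreated cells and for anti-EpCAM against untreated in SP and non-SP; the dashed line marks the median of all genes. Of the intervals shown, only that of Cyp51 in SP after antibody leaves out 0 (-0.78 to -0.02), and Fdps has the widest.

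The mevalonate enzymes lead from HMG-CoA to the isoprenoid farnesyl diphosphate. All array values here are log2, given for replicates 1, 2 and 3 in order. Mvk, mevalonate kinase, read 8.23, 7.96 and 8.75 in treated SP, 8.11, 8.71 and 8.68 in treated non-SP, 8.18, 8.55 and 8.50 in untreated SP, and 8.52, 8.55 and 8.28 in untreated non-SP. Its treated groups overlapped widely, and the lowest array was the second treated SP one. The difference of treated SP from treated non-SP was -0.19 ± 0.23 (SE, limma adjusted p = 1.00), and without replicate 2 of both treated fractions it was 0.091.

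Mvd, which decarboxylates mevalonate diphosphate, read 7.76, 7.35 and 7.93 in treated SP, 7.83, 7.57 and 7.95 in treated non-SP, 7.94, 8.06 and 7.91 in untreated SP, and 8.27, 7.96 and 7.65 in untreated non-SP. Treated SP overlapped untreated SP through replicate 3 only. Antibody against no antibody in SP gave -0.29 ± 0.20 (SE, limma adjusted p = 1.00), and -0.12 without the second treated SP array, while non-SP gave -0.18. Mvd was read from a probe set that can also bind related transcripts, as were Hmgcs1, Fdft1, Lss, Hsd17b7 and Acly.

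Hmgcs1, the HMG-CoA synthase, differed least across groups on its brightest probe set. Its means there were 11.91 ± 0.18, 11.95 ± 0.07, 11.90 ± 0.20 and 11.86 ± 0.19 in treated SP, treated non-SP, untreated SP and untreated non-SP (SD, n = 3 each). For antibody in SP that probe set gave 0.003. Further Hmgcs1 probe sets with means of 11.64, 11.45 and 9.73 gave -0.06, -0.31 and -0.33. Fdps, the synthase of farnesyl diphosphate, was the most variable member. It read 12.03, 10.73 and 12.10 in treated SP, 12.12, 11.28 and 12.02 in treated non-SP, 12.003, 12.18 and 11.64 in untreated SP, and 12.21, 12.21 and 11.82 in untreated non-SP. The 2 second treated arrays were its 2 lowest, and the other treated arrays lay among the untreated ones. Pmvk, phosphomevalonate kinase, and Idi1, the isomerase of the isoprenoid unit, ranged over 0.82 and 0.89 log2 units on the 12 arrays. Pmvk gave 0.10 and -0.02 for SP against non-SP in treated and untreated cells, and Idi1 gave -0.10 and 0.04. A further Idi1 probe set, with a mean of 10.08, gave 0.38 and -0.06, of the opposite sign in both.

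Squalene enzymes commit the isoprenoid to sterol. Fdft1, squalene synthase, read 11.58, 11.25 and 11.39 in treated SP, 11.49, 11.63 and 11.35 in treated non-SP, 11.46, 11.76 and 11.83 in untreated SP, and 11.72, 11.77 and 11.68 in untreated non-SP. All 3 treated non-SP arrays lay below all 3 untreated non-SP arrays, whereas in SP the first treated array lay above the first untreated one. Antibody against no antibody gave -0.28 ± 0.16 in SP (SE, limma adjusted p = 1.00) and -0.23 ± 0.16 in non-SP (adjusted p = 0.988). After subtraction of the all-gene medians these were -0.16 and -0.13. A further Fdft1 probe set of similar signal gave -0.21 and -0.27.

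Sqle, squalene epoxidase, read 11.83, 11.49 and 11.56 in treated SP, 11.94, 11.80 and 11.58 in treated non-SP, 11.84, 11.58 and 11.88 in untreated SP, and 11.91, 11.49 and 11.83 in untreated non-SP. SP lay below non-SP in each of the 3 treated replicate pairs, with differences of -0.11, -0.31 and -0.02, but the groups overlapped. The difference was -0.15 ± 0.17 (SE, limma adjusted p = 1.00).

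Lss, which closes the ring to lanosterol, read 9.41, 9.30 and 9.59 in treated SP, 9.51, 9.89 and 9.61 in treated non-SP, 9.58, 9.55 and 9.72 in untreated SP, and 9.86, 9.58 and 9.50 in untreated non-SP. The difference of SP from non-SP in treated cells, -0.23 ± 0.16 (SE, limma adjusted p = 1.00), ranked first among members in that comparison. It came mostly from replicate pair 2, where SP minus non-SP was -0.58, against -0.10 and -0.01 in pairs 1 and 3. A further Lss probe set gave 0.19, of the opposite sign. The interaction for Lss was -0.21 ± 0.23 and for Sqle -0.17 ± 0.25 (SE, limma adjusted p = 1.00 for both).

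Late sterol enzymes turn lanosterol into cholesterol, and Cyp51, the lanosterol demethylase, was the member with the lowest unadjusted p in any comparison. It read 10.41, 10.22 and 10.05 in treated SP, 10.38, 10.47 and 10.03 in treated non-SP, 10.35, 10.77 and 10.77 in untreated SP, and 10.40, 10.50 and 10.50 in untreated non-SP. The untreated SP arrays 2 and 3 stood above all others, and the first untreated SP array fell within the treated range. Antibody against no antibody in SP was -0.40 ± 0.18 (SE, 95% interval -0.78 to -0.02, limma adjusted p = 1.00), that is, not past the threshold.

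For Cyp51 in non-SP the antibody difference was -0.17 ± 0.18 (SE). SP against non-SP in untreated cells was 0.17 ± 0.18 (SE), the largest positive value of a member there, and the interaction was -0.23 ± 0.25 (SE). Its next probe set gave -0.22 in SP and -0.45 in non-SP for the antibody, and the mean of all its probe sets turned the interaction to 0.032. Adjusted p was at least 0.988 in the comparisons of the main Cyp51 probe set and 0.972 for the next one in non-SP.

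Nsdhl, which removes carbon at the sterol C4 position, read 9.90, 9.10 and 10.10 in treated SP, 9.90, 9.81 and 10.02 in treated non-SP, 9.72, 10.24 and 9.86 in untreated SP, and 10.10, 10.22 and 9.91 in untreated non-SP. A single array, the second treated SP one, was far below the rest. Treated SP against treated non-SP was -0.21 ± 0.24 (SE, limma adjusted p = 1.00), and 0.090 without that array.

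Hsd17b7, a keto-reductase of the same steps, read 9.33, 9.10 and 9.41 in treated SP, 9.33, 9.35 and 9.36 in treated non-SP, 9.19, 9.23 and 9.39 in untreated SP, and 9.58, 9.26 and 9.37 in untreated non-SP. Untreated SP against untreated non-SP was -0.13 ± 0.15 (SE, limma adjusted p = 1.00), and -0.04 without the first untreated non-SP array, which was the highest. Ebp (sterol isomerase), Sc5d (sterol desaturase) and Dhcr7 (a sterol reductase) differed by -0.22 to -0.04 between treatments in either fraction and by -0.06 to 0.06 between fractions. Dhcr7 had the smallest range of all members, 0.36 log2 units.

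No regulator passed the test in any comparison. Srebf2, which encodes SREBP-2, the main driver of sterol genes, read 10.23, 9.58 and 10.29 in treated SP, 10.18, 9.98 and 10.23 in treated non-SP, 10.21, 10.20 and 10.06 in untreated SP, and 10.56, 10.36 and 10.26 in untreated non-SP. Untreated non-SP was highest, with all 3 arrays above all 3 of untreated SP and all 3 of treated non-SP. SP against non-SP in untreated cells was -0.24 ± 0.19 (SE, limma adjusted p = 1.00), and antibody against none in non-SP was -0.26 ± 0.19 (adjusted p = 0.988). Both differences share the untreated non-SP arrays. After subtraction of the all-gene median, the antibody difference in non-SP was -0.16. A further Srebf2 probe set, with a mean of 8.80, gave -0.13 for SP against non-SP in untreated cells.

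Srebf1, which encodes the fatty acid regulator SREBP-1, read 10.39, 10.05 and 10.07 in treated SP, 10.28, 10.32 and 10.03 in treated non-SP, 10.08, 10.42 and 10.31 in untreated SP, and 10.07, 10.35 and 10.47 in untreated non-SP. The 4 groups covered the same range, and the 4 differences lay between -0.10 and -0.03. The 3' array does not tell SREBP-1a from SREBP-1c here.

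Insig1, which retains SREBP in the endoplasmic reticulum and is itself a sterol-responsive gene, read 10.28, 10.04 and 9.73 in treated SP, 10.15, 9.75 and 9.90 in treated non-SP, 10.04, 10.23 and 10.54 in untreated SP, and 10.16, 10.16 and 10.41 in untreated non-SP. In non-SP the treated arrays lay just below the untreated ones, the closest values being 10.15 and 10.16, and in SP the groups overlapped. Antibody against none was -0.26 ± 0.19 in SP (SE, limma adjusted p = 1.00) and -0.31 ± 0.19 in non-SP (adjusted p = 0.988), or -0.14 and -0.21 after subtraction of the all-gene medians. In the second treated pair Insig1 (0.29) and Scd2 (0.05) were the 2 members with SP above non-SP. Stard4, a carrier of free cholesterol, gave -0.19 in SP and -0.03 in non-SP for the antibody.

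**Figure D3:**
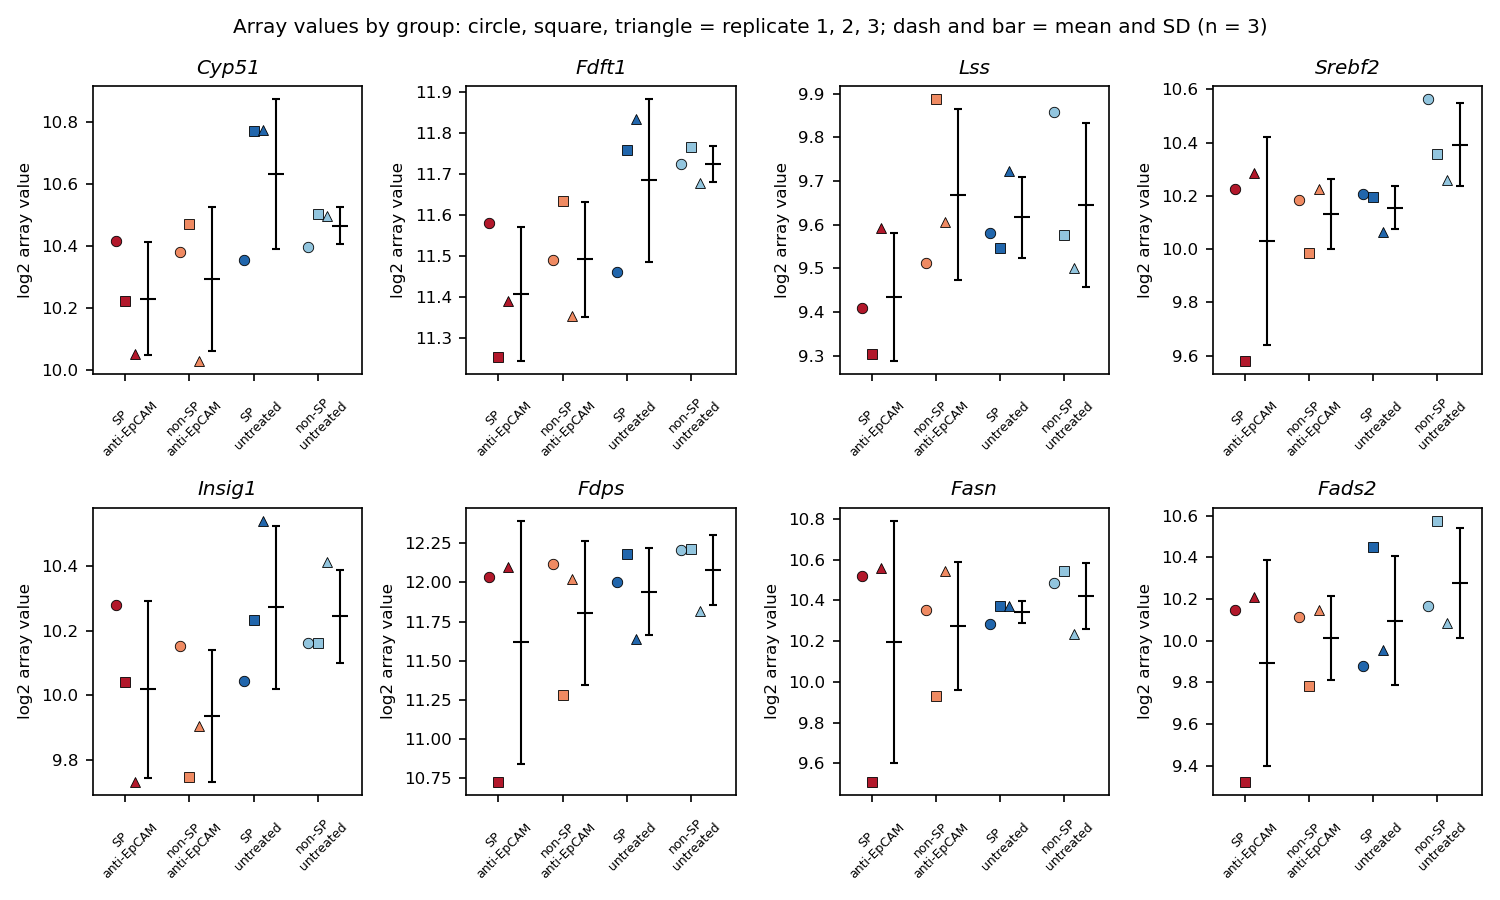
Log2 array values of 8 genes in the 4 groups, one symbol a replicate, with the mean and SD (n = 3) beside them. The square of replicate 2 in treated SP is the lowest point of Fdft1, Lss, Srebf2, Fdps, Fasn and Fads2, but not of Cyp51 and Insig1.

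In the fatty acid branch, Acly (which releases acetyl-CoA from citrate), Acaca (acetyl-CoA carboxylase), Fasn (fatty acid synthase) and Elovl6 (which lengthens palmitate) differed by -0.17 to 0.00 between treatments and by -0.15 to 0.06 between fractions. Fasn read 10.52, 9.51 and 10.56 in treated SP, 10.35, 9.93 and 10.55 in treated non-SP, 10.28, 10.37 and 10.37 in untreated SP, and 10.49, 10.54 and 10.24 in untreated non-SP. As with Fdps, its 2 lowest arrays were the second treated SP and the second treated non-SP arrays, and the other 10 lay close together. Scd1 and Scd2, which make monounsaturated fatty acids, ranged over 0.47 and 0.44 log2 units on the 12 arrays. In non-SP the treated arrays lay wholly below the untreated ones for both (differences of -0.13 and -0.21), as for 6.62% of all genes. After subtraction of the all-gene median these differences were -0.03 and -0.11.

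Fads1 and Fads2 are neighbouring genes for the desaturases of polyunsaturated fatty acids. Fads1 read 11.37, 10.65 and 11.28 in treated SP, 10.99, 10.71 and 11.32 in treated non-SP, 11.07, 11.46 and 11.13 in untreated SP, and 11.48, 11.62 and 10.98 in untreated non-SP. Antibody against none in non-SP was -0.36 ± 0.24 (SE, limma adjusted p = 0.988) with overlapping groups, and a dimmer probe set gave 0.05. The Fads1 interaction was 0.24 ± 0.34 (adjusted p = 1.00) and turned to -0.075 with the mean of its probe sets.

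Fads2 read 10.15, 9.32 and 10.21 in treated SP, 10.12, 9.78 and 10.14 in treated non-SP, 9.88, 10.45 and 9.96 in untreated SP, and 10.16, 10.58 and 10.09 in untreated non-SP. SP was below non-SP in all 3 untreated pairs, with differences of -0.28, -0.13 and -0.13, although the groups overlapped. The difference was -0.18 ± 0.25 (SE, limma adjusted p = 1.00).

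Arrays of 1 treatment and 1 replicate number moved together. Over all genes the deviations of SP and non-SP arrays with the same number and treatment correlated at 0.55 to 0.84, so the arrays were read as 6 pairs. The labels do not say whether a pair came from 1 culture, and what its 2 arrays shared was not tested. Within pairs the members did not keep 1 direction. SP was lower than non-SP for 7, 25 and 12 of 27 members in treated pairs 1, 2 and 3 (medians 0.10, -0.30 and 0.02), against 54.3%, 60.5% and 43.4% of all genes. In untreated pairs 1, 2 and 3 it was lower for 24, 13 and 7 of 27 (medians -0.22, 0.00 and 0.14), against 44.3%, 47.6% and 46.7%. With each pair as a block, the members' median interval narrowed from 0.41 to 0.28 log2 units to either side (1.21-fold) in both fraction comparisons, and 0 members passed. The SE, p and intervals given for single genes come from the fit without this block. For SP against non-SP they therefore do not use the pairing.

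The second treated pair and the first untreated pair were thus the ones in which sterol and fatty acid genes were jointly lower in SP. SP was lower in 3 of 3 treated pairs for Sqle, Lss and Mvd, as for 11.1% of all genes, and in 3 of 3 untreated pairs for Fdps, Srebf2 and Fads2, as for 10.3%. SP was lower in 0 of 3 treated pairs for no member, against 7.7% of all genes, and in 0 of 3 untreated pairs for no member, against 16.4%. No member was lower in all 6 pairs.

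A list of 20 G2 and M phase genes (Ccnb1, Cdk1, Plk1, Top2a and others, 19 measured), added after the values had been seen, moved with these pairs. Its SP minus non-SP median was 0.16, -1.03 and 0.02 in treated pairs 1, 2 and 3, and -0.62, -0.21 and 0.22 in untreated pairs 1, 2 and 3. The pairs with the lowest members' median were those with the lowest G2 and M phase median. Its part in the members' values was not tested.

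**Figure D4:**
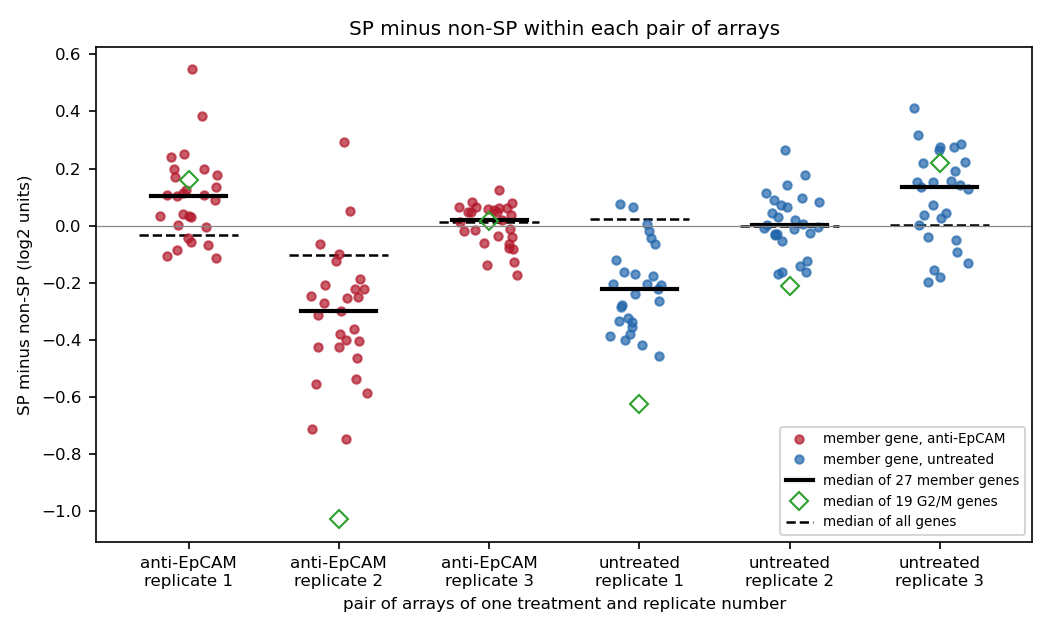
SP minus non-SP difference (log2 units) of each of the 27 genes in the 6 pairs of arrays, with the members' median (thick line), the all-gene median (dashed) and the median of 19 G2/M genes (diamond). Members fall to a median of -0.30 in treated pair 2 and -0.22 in untreated pair 1, and their median lies at or above 0 in the other 4 pairs.

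Both second treated arrays also had a higher 3' minus 5' control signal than the other 10, the only sign of RNA quality examined. The 3' minus 5' signal of the actin control probe sets was 1.03 in treated SP and 0.895 in treated non-SP, against at most 0.733 on the other 10 arrays, and for Gapdh it was 0.50 and 0.46 against at most 0.23. These 2 arrays were the 2 lowest for 9 members (Fdps, Mvd, Ebp, Srebf2, Acly, Fasn, Scd2, Fads1 and Fads2), 9 of 27 against 15.9% of all genes. That count is from the values as deposited. With arrays centred, 12 of 27 members lay below their own mean in the second treated non-SP array, against 41.4% of all genes. There 0 members were at their lowest, against 12.8%. The summed fibroblast markers were lowest in the second treated SP array (13.5, against 13.7 to 14.6 elsewhere, log2 of the sum). So were the summed alveolar type II markers (9.81, against 9.93 to 10.2), while the sums of the other marker lists were not lowest there. The next lowest fibroblast sum was that of the first untreated SP array. The part of RNA quality and of other cells in the members' values was not tested.

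Other probe sets of the same genes with a mean of at least 5 were also mostly low in the second treated SP array. Below their own mean lay 26 of 29, against 61.4% of all probe sets with 1 symbol. On that array 12 of 29 were at their lowest, against 17.6%, a smaller share than the 21 of 27 members. With arrays centred, 11 members were at their lowest there, against 12.2% of all genes, and 8 in the first untreated SP array, against 8.15%. At the upper end, the third untreated SP array held the highest reading of 10 members, against 14.5% of all genes.

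Of 8 measured genes among 11 other sterol genes, 0 passed in any of the 5 comparisons. The lowest p values were those of Ggps1 (geranylgeranyl diphosphate synthase) at 0.33 and Tm7sf2 (sterol reductase) at -0.19 for SP against non-SP in treated cells. Untreated cells gave Msmo1 (sterol methyl oxidase) at 0.14 and Erg28 at -0.12. After antibody, Tm7sf2 gave -0.30 and Msmo1 -0.20 in SP, and Ggps1 gave -0.27 and Erg28 -0.24 in non-SP.

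Of 26 measured genes among 28 further fatty acid genes, 0 passed. At an unadjusted p under 0.05, 2 of the 26 were lower in each antibody comparison, against 4.48% of all genes in SP and 2.7% in non-SP. Antibody in SP gave -0.71 ± 0.26 for Elovl3, an elongase (SE, limma adjusted p = 1.00), and -0.46 ± 0.18 for Scd3, a desaturase (adjusted p = 1.00). In non-SP it gave -0.65 ± 0.26 for Elovl3 and -0.53 ± 0.24 for Acss2, which makes acetyl-CoA from acetate (adjusted p = 0.988 for both). Elovl3 had a mean of 4.60 and Scd3 of 5.51, near the dim end. For SP against non-SP Elovl7 gave 0.56 and Scd3 -0.24 in treated cells, and Mid1ip1 and Elovl1 each gave 0.14 in untreated cells.

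Of the SREBP processing genes, 13 of 15 were measured and 0 passed. Their median for SP against non-SP was 0.10 in treated cells, against -0.03 for all genes, and 0.05 in untreated cells, against 0.01. After antibody it was -0.12 in SP and -0.13 in non-SP, against -0.12 and -0.10 for all genes. Scap, the sterol sensor that escorts SREBP, gave -0.23 and Sec23a, a coat protein of the vesicles that carry it, -0.28 after antibody in SP. In non-SP Sec23a gave -0.41 and Mbtps1, a protease that cuts SREBP, -0.19. Of sterol uptake and trafficking genes 14 of 16 were measured and 0 passed. Npc1, the lysosomal cholesterol exporter, gave 0.41 and Osbpl8 0.36 for SP against non-SP in treated cells, and Osbpl8 and Gramd1a gave -0.37 and -0.39 for antibody in non-SP.

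Of LXR targets and sterol export genes 13 of 16 were measured and 0 passed. Mlxipl, which encodes the glucose-responsive regulator ChREBP, gave -0.51 ± 0.18 after antibody in SP (SE, limma adjusted p = 1.00) at a mean of 4.92, and Lpcat3 gave -0.28. In non-SP Apoe, the sterol-carrying apolipoprotein, gave -0.37 ± 0.17 (adjusted p = 0.988) and Mylip -0.34. The list's median was -0.24 in SP and -0.15 in non-SP, against -0.12 and -0.10 for all genes.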

How the data were processed

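The values are those of 12 Affymetrix mouse arrays on the log2 scale, summarised by the authors with RMA per the submitters' processing notes. The software version and any further scaling were not given in the sources used here. Array medians ran from 5.72 to 6.06. Per the labels' protocols 200 ng of total RNA was amplified from its 3' end. Of 45101 probe sets, 34958 had 1 symbol, 932 several and 9211 none in the annotation of 2016.

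Tests used limma 3.58.1 under R 4.3.3, with a moderated linear model of 4 group means (8 residual degrees of freedom, two-sided), with Benjamini-Hochberg adjustment over 18194 genes and a threshold of 0.05. In simulated data of this size, 54% to 59% of genes changed 2-fold and 92% to 96% of those changed 4-fold were recovered. Noise there was drawn independently for each array, unlike the correlated pairs measured here. The changed genes were drawn at random from all 18194, so the rates are not those of the members. The labels call the samples biological replicates without naming cultures, so p-values measure the spread between these samples. The pairing of SP and non-SP arrays within a treatment rests on the data (correlations 0.55 to 0.84), and arrays of 1 number did not pair across treatments (-0.38 to 0.26).

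The members, gene lists and rules were chosen with earlier results of these data known. Members with the 4 lowest p values in each comparison, and Srebf1, Srebf2 and Insig1, are given in full, with Fdps and Fasn added after their values were seen. From each other list at most 2 genes with the lowest p are named. Alternatives were array centring, quantile normalisation, a filter on dim genes, the mean of all probe sets, another variance model, fewer groups in the fit, replicate blocks and leaving out arrays. Leaving out both second treated arrays was added after seeing the data. Some genes of these pathways are not reported here.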

Additional observations from a re-analysis of the deposited data

How the results depend on the processing

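Under the alternative settings run (at most 22 a comparison) 0 genes passed in any comparison, and the lowest adjusted p of a member was 0.544. Leaving out 1 array at a time moved the members' median between -0.15 and 0.065 (SP against non-SP, treated), -0.08 and 0.03 (untreated), -0.25 and 0.0024 (antibody in SP), -0.16 and -0.09 (antibody in non-SP) and -0.13 and 0.08 (interaction). The upper end for treated SP against non-SP, antibody in SP and the interaction came without the second treated SP array. Without both second treated arrays, chosen after seeing the data, antibody in SP gave 0.0024 and the interaction 0.10. With arrays centred, antibody in non-SP gave 0.024. The cause was not tested.

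Of 20 single-gene results 4 changed sign under some setting. Nsdhl in treated cells ranged between -0.41 and 0.090 when 1 array was left out, the upper value without the second treated SP array, and became 0.042 without both second treated arrays, and Mvk became 0.091 without both. With the mean of all probe sets the interaction became 0.032 for Cyp51 and -0.075 for Fads1.

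With the replicate block within treatment, genes at an unadjusted p under 0.05 numbered 1311 for treated SP against non-SP (127 without the block), 305 for untreated (4 without) and 1003 for the interaction (43 without), and the block changed no call of a member. That block could not be used for the antibody comparisons, nor a fit of only the groups compared for the interaction. For antibody in SP, genes at an unadjusted p under 0.05 numbered 382 with arrays centred and 426 after quantile normalisation, against 835 as deposited. With 3 arrays a group and noise independent between arrays, simulated 2-fold changes were recovered in 54% to 59% of genes after adjustment. That noise left out the correlation within pairs.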

Other observations

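Genes that break fatty acids down stood beside those that build them. Of 17 fatty acid oxidation genes 16 were measured and 0 passed limma's test in any comparison. After antibody in SP the list's median was -0.19 against -0.12 for all genes, and 12 of 16 genes lay below the all-gene median, among them Acadvl, the mitochondrial dehydrogenase of very long chains, at -0.32 ± 0.16 (SE, limma adjusted p = 1.00), and Cpt2 at -0.34 ± 0.19 (adjusted p = 1.00). After antibody in non-SP the median was -0.14 against -0.10, with Cpt1a, the gate of fatty acid entry into mitochondria, at -0.49 ± 0.23 (SE, limma adjusted p = 0.988) and Echs1 at -0.55. For SP against non-SP, Acads gave -0.17 and Slc25a20 0.16 in treated cells, and Acadvl gave 0.15 and Cpt2 0.14 in untreated cells. In that comparison 9 of 16 genes lay above the all-gene median in treated cells and 10 of 16 in untreated cells. As for the other gene lists, these values come from all 12 arrays as deposited. They were not recomputed with arrays centred or without the second treated SP array.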
